A study of Mus musculus with 12 samples.

Results

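The 10 genes described here encode small leucine-rich proteoglycans: Bgn, Dcn, Aspn, Lum, Fmod, Prelp, Omd, Kera, Ogn and Podn. They were found by mouse gene symbol among the Ensembl rows of a table of FPKM (fragments per kilobase of exon, scaled between libraries before deposit). All 10 were present among its 55092 features, of which 54532 have an Ensembl gene ID. RNA-Seq was done on abdominal aortas of 12 male mice, 3 in each of 4 groups, as part of a study of how loss of the matricellular protein CCN2 from smooth muscle cells affects aneurysm formation. CFS were CCN2fl/fl mice given saline, CSS were CCN2SMCΔ mice given saline, CFA were CCN2fl/fl mice infused with angiotensin II (Ang II), and CSA were CCN2SMCΔ mice infused with Ang II, in all cases for 7 days by osmotic pump, Ang II being given at 500 ng/kg/min. All 12 mice carried floxed Ccn2 alleles and received 5 doses of tamoxifen from 8 weeks of age, followed by a washout of 2 weeks. CCN2SMCΔ mice also carried Myh11-Cre-ERT2, in which the Myh11 promoter drives a tamoxifen-dependent Cre recombinase in smooth muscle, so that deletion was directed to those cells and other cells of the wall kept the floxed alleles. The CCN2fl/fl controls had no Cre, so that carrying the transgene and losing CCN2 cannot be told apart between the genotypes.

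Small leucine-rich proteoglycans are secreted proteins built around a curved array of leucine-rich repeats, most of them decorated with chains of chondroitin, dermatan or keratan sulfate. They coat collagen fibrils and set fibril spacing and diameter, and they bind growth factors of the TGF-β family, and soluble forms can be sensed by Toll-like receptors. In the arterial wall biglycan and decorin are known as products of smooth muscle cells and adventitial fibroblasts.

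The depth, taken as the sum of fragments recovered from FPKM and exon length, ran from 14558586 to 23107811 fragments per mouse. Smooth muscle markers, which define the labelled tissue, were abundant in CFS, CSS and CFA (summed FPKM of 10 markers from 5881 in a CFA mouse to 10810.1 in a CFS mouse) and were lower in CSA (825 to 979). Ccn2 itself had a mean FPKM of 894 ± 290 (SD, n = 3) in CFA and 328 ± 71.9 (SD, n = 3) in CSA, a log2 fold change (log2FC) of -1.41 (SE 0.34, adjusted p = 0.00622; limma, Benjamini-Hochberg), while CSS and CFS differed by -0.40 (SE 0.34, adjusted p = 1.0 from the same fit). The library of CSA mouse 03 stood apart from the rest. Only 273 features had exactly 1 fragment in it, against 1132 to 2437 in the other 11 libraries, and its root mean square distance to the other CSA libraries was 1.199 and 1.213 on the log2 scale, against 0.505 to 0.743 for the other 10 pairs of replicates. Skeletal muscle markers also set 2 libraries apart, with a summed FPKM of 153 in CFS mouse 68 and 244 in CSS mouse 55 against 2.58 to 5.57 in the other 10. Between CSS and CFS, leaving out either mouse gave no call among the members and no change of sign. Among CFS mice, the endothelial marker Pecam1 was 38.3 FPKM in mouse 69 against 199 and 188. The adipocyte marker Plin1 was 92.0 FPKM in CFS mouse 70 against 23.7 and 23.1. The macrophage marker Cd68 was 24.0 FPKM in CFA mouse 72 against 10.2 and 8.14 in the other CFA mice. CFA mouse 72 also had the lowest Ogn, Omd, Prelp, Podn, Dcn, Lum and Aspn of its group, and the highest Fmod. Its root mean square distance to CSA mice 01 and 02 was 1.256 and 1.227, against 1.462 to 1.509 for the other CFA mice. Counts of members and log2FC values that rest on CSA are also given without CSA mouse 03, and lists of other genes by their counts.

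Several of the genes lie beside each other, and the promoters of 3 neighbours are shown here because Omd and Ogn were called lower in CSA than in CFA and Aspn, beside them, was not. On chromosome 13 the genes Aspn, Omd and Ogn follow each other on the plus strand within a cluster of 119.7 kb that starts with Ecm2. Of the 10 genes, 8 (all but Dcn and Lum) matched the RefSeq promoter table of GRCm38.p6. The 250 bases before the RefSeq start are printed 5′ to 3′ for Aspn (chr13:49544193-49544442, plus strand), Omd (chr13:49582212-49582461, plus strand), Ogn (chr13:49607765-49608014, plus strand) and, as the member with the highest level, Bgn (chrX:73483351-73483600, plus strand). Capitals mark matches on either strand to TATAAA (the TATA box), GGGCGG (the GC box) or GGAATG (the core bound by TEAD factors).
Aspn: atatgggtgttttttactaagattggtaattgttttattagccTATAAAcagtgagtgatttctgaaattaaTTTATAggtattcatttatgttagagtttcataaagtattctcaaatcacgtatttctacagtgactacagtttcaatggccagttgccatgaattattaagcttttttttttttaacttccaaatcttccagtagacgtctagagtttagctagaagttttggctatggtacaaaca
Omd: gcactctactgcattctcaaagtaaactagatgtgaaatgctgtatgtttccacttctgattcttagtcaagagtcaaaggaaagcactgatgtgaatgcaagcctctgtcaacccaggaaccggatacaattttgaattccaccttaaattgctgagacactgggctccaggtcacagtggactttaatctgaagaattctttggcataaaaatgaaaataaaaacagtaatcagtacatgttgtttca
Ogn: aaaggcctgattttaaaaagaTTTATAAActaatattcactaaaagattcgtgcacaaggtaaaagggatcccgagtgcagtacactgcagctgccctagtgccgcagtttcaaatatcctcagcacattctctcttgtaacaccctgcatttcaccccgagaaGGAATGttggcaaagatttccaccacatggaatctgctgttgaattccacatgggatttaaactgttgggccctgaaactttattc
Bgn: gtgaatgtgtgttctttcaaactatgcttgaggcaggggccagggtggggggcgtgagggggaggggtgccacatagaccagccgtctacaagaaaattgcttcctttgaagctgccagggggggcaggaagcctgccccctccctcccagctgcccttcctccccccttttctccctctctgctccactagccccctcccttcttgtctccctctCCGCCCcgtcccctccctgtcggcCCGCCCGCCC

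TATAAA was found in the windows of Aspn and Ogn and not in those of Omd and Bgn, and 12.37% of 32851 promoter windows of the same length hold it on either strand. The Aspn window has a match on each strand, 207 to 202 bases before the start on the same strand and 178 to 173 on the opposite. In the Ogn window the matches on both strands overlap, at 227 to 222 bases on the same strand and 229 to 224 on the opposite. Whether any of these matches acts as a TATA box was not tested. Only the Ogn window of these 4 holds GGAATG, on the same strand and 86 to 81 bases before the start, and 12.64% of all windows hold it. The Bgn window holds GGGCGG at 3 places on the opposite strand, of which 2 overlap, and 32.74% of all windows hold it. A search for TGANTCA (the AP-1 site) and for the CArG box found no match in the windows of the 8 genes, and 6.75% and 1.47% of all windows hold them.

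Under Ang II infusion, Ogn, Omd, Podn, Prelp and Bgn were lower in CCN2SMCΔ than in CCN2fl/fl aortas, and Lum was higher. The comparison of CSA with CFA sets the genotypes side by side during Ang II infusion. After this infusion the paper reports infrarenal aneurysms in nearly all CCN2SMCΔ mice. In controls it reports only a few mild aneurysms, in the thoracic or suprarenal aorta. Loss of CCN2 and the presence of an aneurysm therefore cannot be told apart in this comparison. Calls required an adjusted p under 0.05 (limma on log2(FPKM + 0.1), Benjamini-Hochberg adjustment over 14676 genes) together with an absolute log2FC over 1.5. Of the 9 members tested, 2 were called lower (Ogn and Omd) against 8.27% of all tested genes, and 0 were called higher against 8.95%. By the adjusted p alone, 5 of 9 were lower (Ogn, Omd, Podn, Prelp and Bgn) against 21.2% of all tested genes, and 1 was higher (Lum) against 19.5%. The median log2FC was -0.75 over the 9 members and -0.04 over all tested genes, and the median absolute change was 0.86 over the members and 0.54 over all tested genes. Without CSA mouse 03 the counts were the same, with 2 called lower against 7.53% of the genes tested in that fit, 0 called higher against 6.26%, and by the adjusted p alone 5 lower against 25.7% and 1 higher against 21.3%. Because whole tissue was sequenced, fewer cells of a type and less RNA per cell cannot be told apart in any of these values.

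**Figure D1:**
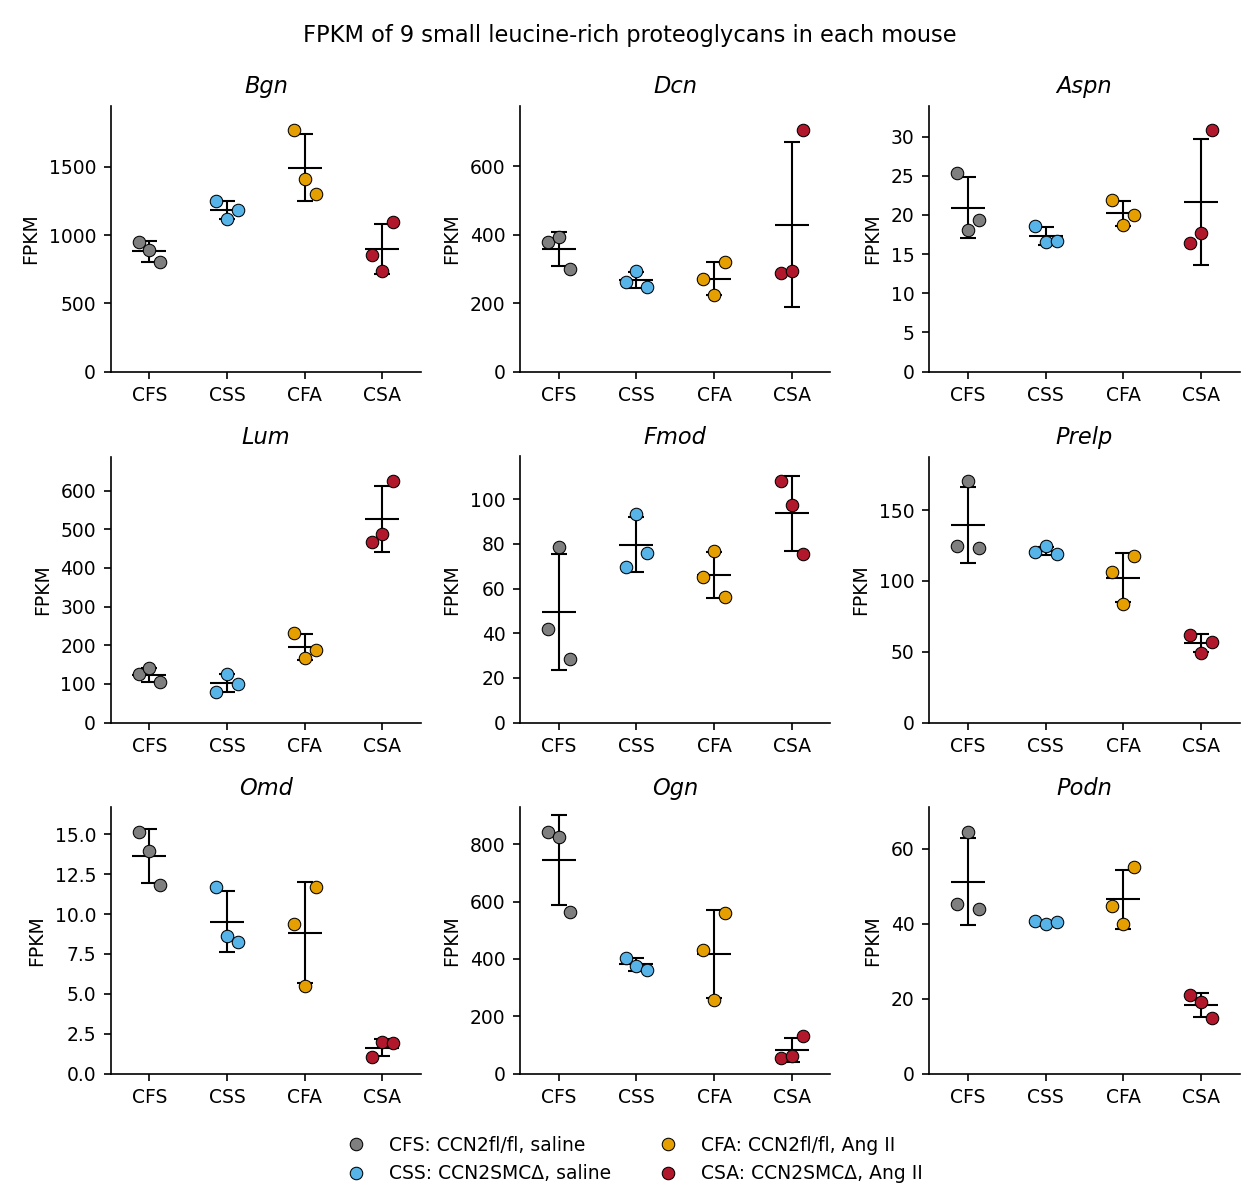
FPKM (vertical axes, from 0) of the 9 tested genes in each of the 12 mice by group, where points are mice and the horizontal bar with whiskers is the mean ± SD of 3 mice. Lum is highest in the 3 CSA mice, and Omd, Ogn, Podn and Prelp are lowest in them.

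Osteoglycin, encoded by Ogn, is a class III proteoglycan also called mimecan that is made by vascular smooth muscle and fibroblasts. The CFS mice had an Ogn FPKM of 844, 827 and 563, the CSS mice of 404, 377 and 362, the CFA mice of 432, 256 and 562, and the CSA mice of 55.8, 61.7 and 132. Every CSA mouse lay below every other mouse, and the 3 CFS mice lay above the rest. Ogn was 5.14-fold lower in CSA than in CFA (95% confidence interval 3.01 to 8.77), a log2FC of -2.36 (SE 0.35, adjusted p = 3.03e-04), close to that of Omd. Without CSA mouse 03, which had the highest Ogn of the CSA mice, the log2FC was -2.75.

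Osteomodulin, encoded by Omd, is a class II keratan sulfate proteoglycan first known from bone, and it was the lowest of the 9 tested members in every group. Its FPKM was 15.2, 13.98 and 11.8 in CFS, 11.7, 8.61 and 8.26 in CSS, 9.35, 5.47 and 11.7 in CFA, and 1.03, 1.97 and 1.92 in CSA. The CSA mice again lay below all others, and these values rest on 47, 94 and 66 fragments against 261 to 630 in the other mice. Omd was 5.09-fold lower in CSA than in CFA (95% confidence interval 3.21 to 8.06), a log2FC of -2.35 (SE 0.30, adjusted p = 1.17e-04), and -2.48 without CSA mouse 03. The ratio of Ogn to Omd FPKM ran from 31.3 to 69.2 over all 12 mice, with both ends of that range in CSA (31.3 in mouse 02 and 69.2 in mouse 03).

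Podocan, encoded by Podn, is a class V member known to restrain smooth muscle growth. Its FPKM was 45.3, 64.5 and 43.8 in CFS, 40.6, 39.9 and 40.3 in CSS, 44.6, 39.8 and 55.1 in CFA, and 21.1, 19.1 and 14.9 in CSA. The CSA mice lay below all 9 other mice, and the CSS mice differed from each other by less than 1 FPKM. Podn was 2.53-fold lower in CSA than in CFA (95% confidence interval 1.90 to 3.36, log2FC -1.34, SE 0.19, adjusted p = 2.05e-04), which is under the fold limit of a call. Without CSA mouse 03 the log2FC was -1.19.

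Prelp, a class II member that anchors basement membrane to the underlying collagen, had an FPKM of 125, 171 and 123 in CFS, 120.1, 124 and 119 in CSS, 106, 83.5 and 117 in CFA, and 62.0, 49.2 and 56.7 in CSA. The CSA mice lay below all others, and all CFA mice lay below all CSS and CFS mice. Between CSA and CFA it was 1.82-fold lower (95% confidence interval 1.40 to 2.35, log2FC -0.86, SE 0.17, adjusted p = 0.00194), and the log2FC without CSA mouse 03 was -0.87. The gene shares 9.7% of its exonic bases with the antisense gene Gm15851, and whether the counting used strand is not given in the sources used here.

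Biglycan, encoded by Bgn, a class I proteoglycan that carries chondroitin or dermatan sulfate and binds TGF-β, had the highest mean level in all 4 groups. Its FPKM was 952, 889 and 803 in CFS, 1248, 1121 and 1186 in CSS, 1772, 1414 and 1299 in CFA, and 858, 734 and 1094 in CSA. The CFA mice lay above all others and the CSS mice above all CFS and CSA mice, while CSA and CFS overlapped. Bgn was 1.68-fold lower in CSA than in CFA (95% confidence interval 1.29 to 2.18, log2FC -0.75, SE 0.17, adjusted p = 0.0049). The log2FC was -0.90 without CSA mouse 03, and in a fit of only these 2 groups the adjusted p was 0.0515.

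Lumican, encoded by Lum, a class II keratan sulfate proteoglycan that limits the lateral growth of collagen fibrils, was the only tested member with a higher level in CSA by the adjusted p. Its FPKM was 125, 141 and 105 in CFS, 80.5, 126 and 99.5 in CSS, 231, 166 and 187 in CFA, and 467, 488 and 625 in CSA. Each CSA mouse had at least 467 FPKM, and no other mouse had more than 231. Lum was 2.70-fold higher in CSA than in CFA (95% confidence interval 1.98 to 3.69), a log2FC of 1.44 (SE 0.20, adjusted p = 2.22e-04) that lies just under the fold limit of 1.5. It was 1.305 without CSA mouse 03, the mouse with the highest level, 1.52 without CSA mouse 01 and 1.57 without CFA mouse 71.

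Decorin, Fmod and Aspn gave no call between CSA and CFA, and their groups overlapped. Decorin, encoded by Dcn, binds collagen and TGF-β and carries a glycosaminoglycan chain of the chondroitin or dermatan sulfate type. Its FPKM was 379.8, 394 and 301 in CFS, 261, 294 and 247 in CSS, 272, 223 and 321 in CFA, and 289, 294 and 707 in CSA. The CSA mean of 429.8 ± 239.9 (SD, n = 3) rests on mouse 03, since the other CSA mice lay within the range of CFA. The log2FC was 0.54 (95% confidence interval -0.13 to 1.21, adjusted p = 0.183), and 0.12 (adjusted p = 0.600) without CSA mouse 03. 

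Asporin, encoded by Aspn, is a class I relative of decorin that lacks the usual glycosaminoglycan attachment site. Its FPKM was 25.3, 18.1 and 19.4 in CFS, 18.6, 16.5 and 16.7 in CSS, 21.9, 18.7 and 19.999 in CFA, and 16.5, 17.6 and 30.9 in CSA. The 12 mice lay close together, apart from the higher value of CSA mouse 03. The log2FC between CSA and CFA was 0.04 (95% confidence interval -0.44 to 0.53, adjusted p = 0.893) with it and -0.24 without it.

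Fibromodulin, encoded by Fmod, is a class II member that binds the same collagen sites as lumican and is known to modify collagen cross-linking. Its FPKM was 41.9, 78.6 and 28.4 in CFS, 69.4, 93.5 and 76.1 in CSS, 65.2, 76.7 and 56.1 in CFA, and 108, 97.3 and 75.3 in CSA. The CFS mice were the most spread, and the CSA and CFA mice overlapped by a pair of values (75.3 and 76.7). The log2FC between CSA and CFA was 0.50 (95% confidence interval -0.19 to 1.19, adjusted p = 0.229), and 0.65 without CSA mouse 03.

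Keratocan, encoded by Kera and known from the cornea, was listed at 0 in 10 of 12 libraries and at 0.0708 and 0.0605 FPKM in CSS mice 54 and 56, which is 3 fragments each. A value of 0 allows up to 3 fragments, or 0.0604 to 0.0859 FPKM in those 10 libraries, for counting error only. Kera did not reach 1 FPKM in 3 libraries and was not tested.

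The comparison of CSS with CFS asks what the deletion changes without Ang II. None of the 9 tested members was called by limma, against 0.0136% of all tested genes (2 of 14676), and 3 of 9 had an unadjusted p under 0.05 (Ogn, Bgn and Fmod) against 6.3% of all tested genes. Ogn had a mean FPKM of 381 ± 21.4 in CSS and 744 ± 157 in CFS (SD, n = 3 each), with all CSS mice below all CFS mice and a log2FC of -0.95 (SE 0.35, adjusted p = 0.661). Bgn lay the other way, with all CSS mice above all CFS mice, means of 1185 ± 63.4 and 881 ± 74.7 (SD, n = 3 each) and a log2FC of 0.43 (SE 0.17, adjusted p = 0.689). Fmod gave 0.80 (SE 0.31, adjusted p = 0.686 from limma), and its groups overlapped at CFS mouse 69. The Fmod log2FC was 1.19 without that mouse and 0.46 without CFS mouse 70, and was called in neither fit. The groups did not overlap in 5 of 9 members, against 20.4% of all tested genes, and besides Ogn and Bgn these were Dcn, Omd and Podn, all with the CSS mice below the CFS mice. The other 6 tested members had log2FCs between -0.52 (Omd) and -0.18 (Prelp) and adjusted p-values of 0.915 to 1.0. Leaving out CFS mouse 69 gave -0.03 for Prelp and -0.15 for Podn (-0.32 with all mice). Lum was -0.13 without CSS mouse 54 and -0.29 with all mice, and Aspn -0.11 without CFS mouse 68 and -0.26 with all mice. In the 22 alternative settings tried, no member reached an adjusted p under 0.05 from limma in this comparison, and the lowest was 0.0515 for Ogn.

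The comparison of CFA with CFS gives the Ang II difference in control mice. By limma none of the 9 tested members was called, against 0.0273% of all tested genes (4 of 14676), and 5 of 9 had an unadjusted p under 0.05 against 9.42% of all tested genes. Those were Bgn (log2FC 0.75, SE 0.17, adjusted p = 0.137), Ogn (-0.89, SE 0.35, adjusted p = 0.446), Lum (0.66, SE 0.20, adjusted p = 0.288), Prelp (-0.44, SE 0.17, adjusted p = 0.436) and Omd (-0.68, SE 0.30, adjusted p = 0.521). In these 5 of 9 the groups did not overlap, against 20.2% of all tested genes, and the CFA mice lay above the CFS mice for Bgn and Lum and below them for Ogn, Prelp and Omd. Dcn (-0.40), Fmod (0.53), Podn (-0.13) and Aspn (-0.04) had overlapping groups. Over the 22 alternative settings, Omd ran from -0.91 to -0.37, Ogn from -1.14 to -0.57, Prelp from -0.55 to -0.29 and Fmod from 0.19 to 0.92. None of these members passed the adjusted p in any of those settings. With array weights, the adjusted p was 0.0108 for Bgn and 0.0391 for Lum, and Bgn reached 0.0469 without CSA mouse 03, which enters this fit through the shared spread.

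**Figure D2:**
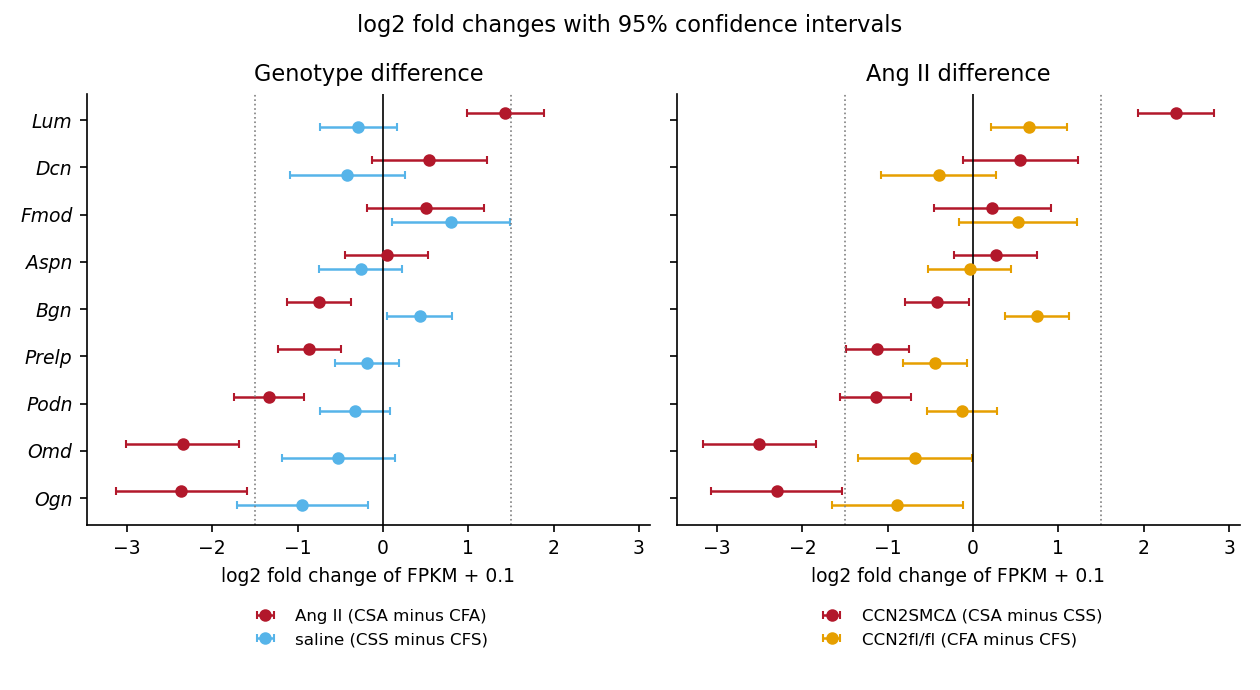
Log2 fold changes of FPKM + 0.1 (horizontal axes) with 95% confidence intervals for the 9 tested genes, with the genotype difference under Ang II and saline on the left and the Ang II difference in each genotype on the right; dotted lines mark the fold limit of 1.5. Lum stands at 1.44 and Ogn and Omd at -2.36 and -2.35 between CSA and CFA, while between CSS and CFS no member passed the adjusted p.

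In CCN2SMCΔ mice, Ang II came with higher Lum and lower Ogn, Omd, Podn and Prelp. The comparison of CSA with CSS called 1 of 9 tested members higher (Lum) against 10.9% of all tested genes and 2 of 9 lower (Ogn and Omd) against 9.36%. By the adjusted p alone, 1 of 9 was higher against 22.3% and 4 of 9 were lower against 23.9%. Without CSA mouse 03, 1 was called higher against 8.25% and 2 lower against 8.54%, and by the adjusted p alone 1 was higher against 23.3% and 5 were lower against 28.5%, Bgn being the addition. Lum was then 2.25, Ogn -2.69, Omd -2.64, Podn -0.999, Prelp -1.13, Dcn 0.13, Aspn -0.02 and Fmod 0.38 on the log2 scale. Lum was 5.20-fold higher (95% confidence interval 3.81 to 7.09, log2FC 2.38, SE 0.20, adjusted p = 5.24e-06 from limma). Omd was 5.67-fold lower (log2FC -2.50, SE 0.30, adjusted p = 5.47e-05) and Ogn 4.94-fold lower (-2.30, SE 0.35, adjusted p = 2.87e-04). Podn (-1.14, adjusted p = 4.72e-04) and Prelp (-1.12, adjusted p = 2.76e-04) were lower by less than the fold limit. Bgn gave -0.42 (SE 0.17, adjusted p = 0.0646) with all CSA mice below all CSS mice, and -0.58 (adjusted p = 0.00704) without CSA mouse 03, while Dcn (0.55), Aspn (0.27) and Fmod (0.23) had overlapping groups. This comparison and that with CFA share the CSA mice, and their values are given side by side and not as independent support for each other.

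Whether the genotype difference depended on Ang II was tested by the interaction, the CSA minus CFA difference less the CSS minus CFS difference. Of 9 tested members, 1 was called with a positive interaction (Lum) against 7.89% of all tested genes and 1 with a negative interaction (Omd) against 7.31%. By the adjusted p alone the counts were 1 against 12.8% and 3 against 13.7%, the latter being Bgn, Omd and Podn. For Lum the genotype log2 difference was -0.29 under saline and 1.44 under Ang II, an interaction of 1.72 (SE 0.29, adjusted p = 0.00145 from limma). For Bgn it was 0.43 under saline and -0.75 under Ang II, an interaction of -1.18 (SE 0.24, adjusted p = 0.00467). For Omd it was -0.52 and -2.35 (interaction -1.82, SE 0.42, adjusted p = 0.00914), and for Podn -0.32 and -1.34 (interaction -1.01, adjusted p = 0.0158). Ogn and Prelp did not pass, with -1.42 (adjusted p = 0.0565) and -0.68 (adjusted p = 0.0598), and Ogn without CSA mouse 03 gave -1.81 (adjusted p = 0.00509), so that 2 members were called negative against 7.06% of the genes in that fit. Without that mouse the interaction was 1.59 for Lum, -1.33 for Bgn, -1.96 for Omd and -0.87 for Podn, each with an adjusted p under 0.05 in limma, and -0.69 for Prelp, 0.53 for Dcn, 0.02 for Aspn and -0.15 for Fmod, which did not pass. Dcn gave 0.96 (adjusted p = 0.130), Aspn 0.30 and Fmod -0.30.

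Set side by side on the FPKM scale, which is per length of exon, the 10 genes formed a different order in CSA. In CFS the order of mean FPKM was Bgn, Ogn, Dcn, Prelp, Lum, Podn, Fmod, Aspn, Omd and Kera, and the ranges of 3 neighbouring pairs overlapped (Bgn and Ogn, Prelp and Lum, Podn and Fmod). In CSS the order was Bgn, Ogn, Dcn, Prelp, Lum, Fmod, Podn, Aspn, Omd and Kera, with overlap of Prelp and Lum and of Lum and Fmod. In CFA, Lum stood above Prelp, Fmod above Podn, and Ogn, Dcn and Lum overlapped in turn. In CSA, Lum stood next to Bgn with a mean of 527 ± 86.3 and Ogn below Fmod with 83.3 ± 42.7 (SD, n = 3 each), against 195 ± 33.4 and 417 ± 153 in CFA. There Lum overlapped with Dcn, Fmod with Ogn, Ogn with Prelp, and Aspn with Podn. Without mouse 03, Podn stood above Aspn in CSA, and of these pairs Ogn and Prelp alone overlapped.

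The summed FPKM of the 10 genes (mean ± SD, n = 3) was 2382 ± 333 in CFS, 2203 ± 49.4 in CSS, 2622 ± 336 in CFA and 2126 ± 533 in CSA. All CFA mice (2283 to 2955) lay above all CSS mice (2155 to 2253), and CSA overlapped the other groups through mouse 03 alone (2739), since CSA mice 01 and 02 (1878 and 1762) lay below all 9 other mice. Within that sum, Ogn held 31.0 ± 2.53% of it in CFS, 17.3 ± 0.585% in CSS, 15.7 ± 5.16% in CFA and 3.77 ± 0.961% in CSA. Lum held 5.18 ± 0.269%, 4.64 ± 1.08%, 7.41 ± 0.379% and 25.1 ± 2.43% in the same order of groups. Its share was at least 22.8% in each CSA mouse and at most 7.83% in any other mouse. The share of Bgn was 37.2 ± 2.98% in CFS, 53.8 ± 2.47% in CSS, 57.1 ± 6.74% in CFA and 42.4 ± 2.94% in CSA. These sums and shares are descriptions with no test.

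**Figure D3:**
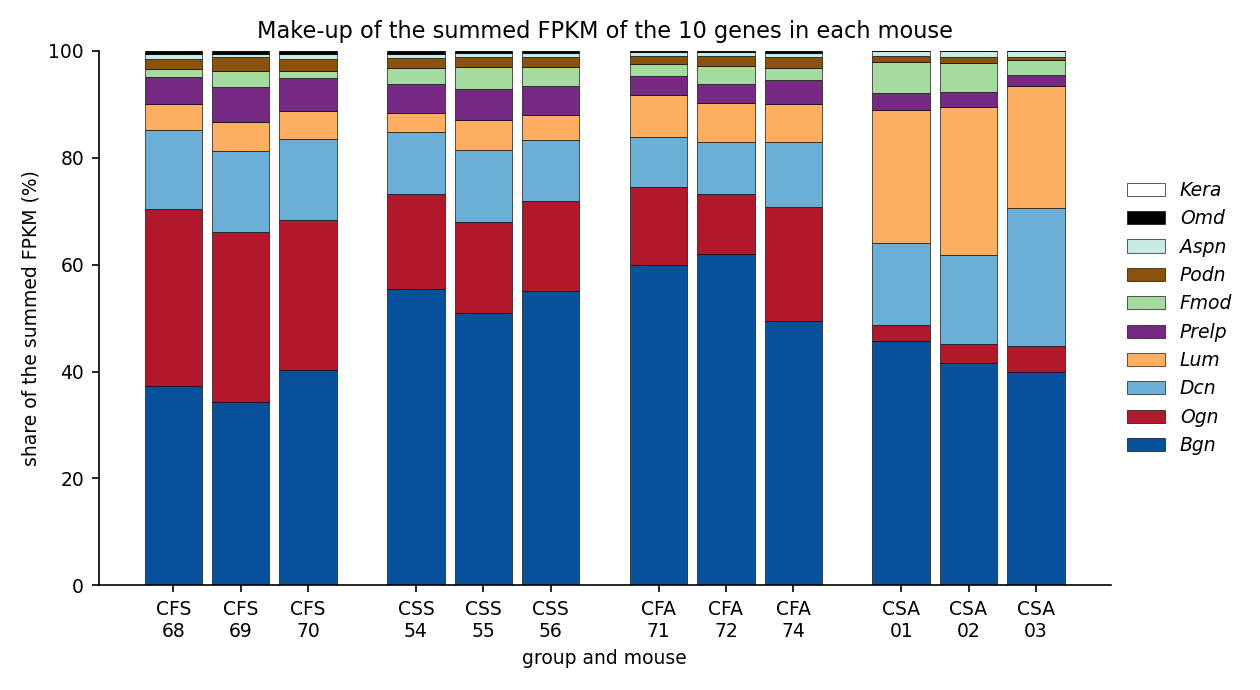
Share of each of the 10 genes in their summed FPKM (vertical axis, percent) for each mouse, grouped as CFS, CSS, CFA and CSA. The Ogn share is 2.97 to 4.84% in the CSA mice and 11.2 to 33.0% in the others, and the Lum share is 22.8 to 27.7% in the CSA mice and 3.57 to 7.83% in the others.

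Ratios within a mouse, which do not depend on the scaling of a library, show the same contrast between members. Lum relative to Bgn was 0.544, 0.664 and 0.572 in the CSA mice and 0.0645 to 0.158 in the other 9. Dcn relative to Ogn was 5.18, 4.76 and 5.34 in CSA and 0.450 to 0.868 elsewhere, and for this ratio CSA mouse 03 did not stand apart from the other CSA mice. Lum relative to its neighbour Dcn was 1.61 and 1.66 in CSA mice 01 and 02 but 0.885 in CSA mouse 03, close to the 0.851 of CFA mouse 71. Bgn relative to Dcn was 2.26 to 2.67 in CFS, 3.82 to 4.81 in CSS, 4.05 to 6.51 in CFA and 1.55 to 2.97 in CSA.

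Of the neighbours on chromosome 13, Omd and Ogn had nearly the same log2FC between CSA and CFA, and Aspn had none past the adjusted p. In the cluster on chromosome 13, all on the plus strand, Aspn (chr13:49544443-49567565) had a log2FC of 0.04 between Ecm2 (chr13:49504810-49532789, -2.42, SE 0.22, adjusted p = 1.1e-05 from limma) on one side and Omd (chr13:49582462-49592822, -2.35) and Ogn (chr13:49608046-49624501, -2.36) on the other. The Omd gene starts 14896 bases after the end of Aspn. Ogn relative to Aspn was 13.7 to 45.8 in the 9 mice of CFS, CSS and CFA and 3.39, 3.498 and 4.29 in the CSA mice. On chromosome 10, Dcn (chr10:97479609-97518143), Lum (chr10:97565128-97572703) and Kera (chr10:97606879-97613692) lie on the plus strand in a cluster of 202.8 kb that ends with Epyc, where Lum was 1.44, Dcn 0.54, and Kera and Epyc did not reach the filter.

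On chromosome 1, Prelp (chr1:133910304-133921414, minus strand) had -0.86, and Fmod (chr1:134037254-134048277, plus strand) had 0.50. Their neighbour Optc, which encodes opticin, fell from a mean FPKM of 28.8 ± 2.56 to 1.17 ± 0.575 (SD, n = 3 each; log2FC -4.61, SE 0.29, adjusted p = 1.31e-06 from limma). Bgn (chrX:73483602-73495933, plus strand) and Podn (chr4:108014791-108096445, minus strand) stand outside these clusters. Gene positions are from GENCODE M21 on GRCm38.

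**Figure D4:**
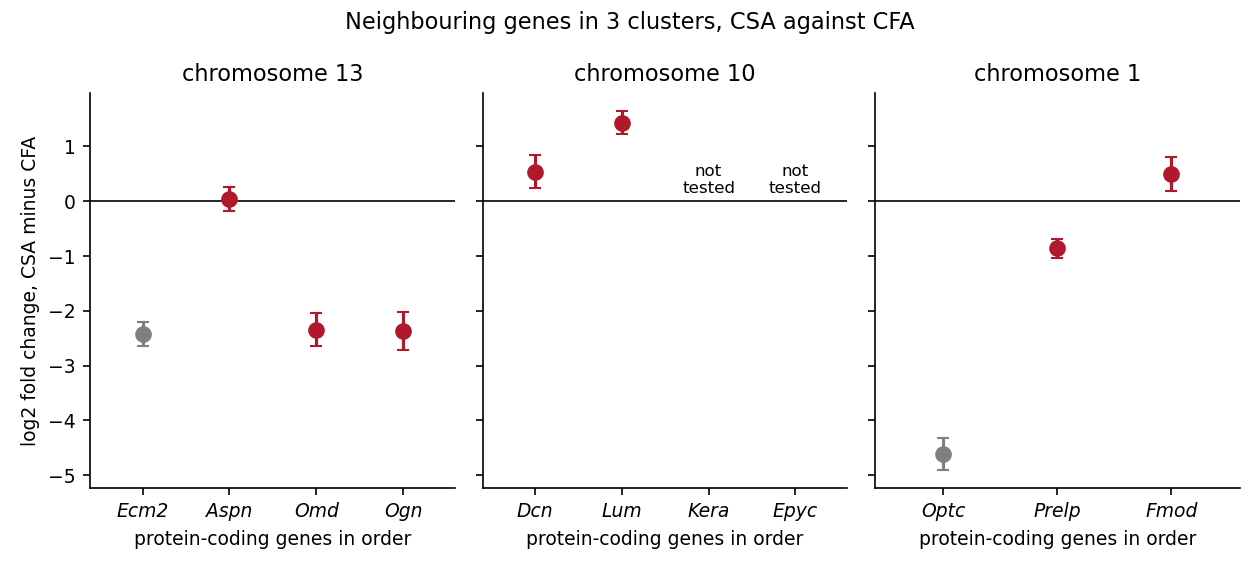
Log2 fold change between CSA and CFA (vertical axis; points with 1 standard error) of protein-coding genes in their order along 3 clusters, members in red and other genes in grey. Aspn stands at 0.04 between Ecm2 at -2.42 and Omd at -2.35, and Kera and Epyc were not tested.

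The genes with the pattern most like a member were found by how far log2(FPKM + 0.1) differed (as a root mean square) over the 12 libraries, each gene centred on its own mean. Nearest to Bgn were Zfp354c (0.185), Gab2 (0.187), Id2 (0.194), Erg (0.196) and Tbcel (0.196). Nearest to Ogn were Gsta3 (0.277), Cacnb2 (0.281), the pseudogene Gstm2-ps1 (0.287), Bves (0.291) and Rgs7bp (0.309).

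Other members of the family and the genes that build, bind or cut these proteins were counted from lists. Of 9 further family members, 5 passed the filter, and between CSA and CFA 3 were called lower against 8.27% of all tested genes and 0 higher against 8.95%, with a median log2FC of -2.42 against -0.04 over all tested genes. The genes called were Optc and Ecm2, given above, and Chad (chondroadherin, a cartilage matrix protein), whose mean FPKM (± SD, n = 3) was 14.9 ± 4.89 in CFA and 2.11 ± 0.853 in CSA (log2FC -2.78, SE 0.55, adjusted p = 0.00194 from limma). Tsku rose by less than the fold limit (1.03, adjusted p = 0.0157), and Chadl fell by less than it (-1.07, adjusted p = 0.029). By the adjusted p alone, 1 was higher against 19.5% of all tested genes and 4 lower against 21.2%. Without CSA mouse 03 the calls were again 3 lower and 0 higher, against 7.53% and 6.26% of the genes in that fit. By the adjusted p alone, 1 was then higher against 21.3% and 3 lower against 25.7%. Chad was also low in the saline groups, at 2.22 ± 1.55 in CFS and 1.21 ± 0.663 in CSS.

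Of 21 tested genes for chondroitin and dermatan sulfate synthesis, which make the chains of Bgn and Dcn, 3 were called lower and 0 higher (median -0.35), against 8.27% and 8.95% of all tested genes. Those called were Chst3, a chondroitin 6-sulfotransferase (-3.55, adjusted p = 6.88e-07 from limma), Ust, which sulfates uronic acid (-1.59, adjusted p = 1.16e-05), and Chsy3, a chondroitin synthase (-1.56, adjusted p = 0.0113). Chst11, a chondroitin 4-sulfotransferase (1.48, adjusted p = 1.5e-05 from limma), and Dse, a dermatan sulfate epimerase (0.65, adjusted p = 0.0019), rose by less than the fold limit. Chst12 (-0.78, adjusted p = 0.00141 from limma) and Fam20b (-0.47, adjusted p = 0.00474) fell by less than it. By the adjusted p alone, 2 were thus higher against 19.5% of all tested genes and 5 lower against 21.2%. With CSA mouse 03 left out, 2 were called lower against 7.53% of the genes tested in that fit and 0 higher against 6.26%. By the adjusted p alone, 6 were then higher against 21.3% and 6 lower against 25.7%. The median of the list was 0.09, of the other sign. Chst3 had a mean FPKM (± SD, n = 3) of 19.2 ± 3.06 in CFA and 1.55 ± 0.275 in CSA. Of 9 tested genes for keratan sulfate synthesis, which serves Lum, Fmod, Omd and Kera, 1 was called lower (St3gal2, a sialyltransferase, -2.09, adjusted p = 6.01e-05) and 0 higher (median -0.28), which is close to the 8.27% of all tested genes called lower. St3gal3 (-1.03, adjusted p = 0.00864) and B4galt1 (0.89, adjusted p = 1.81e-04), a galactosyltransferase, moved by less than the fold limit. Without CSA mouse 03, 1 was again called lower and 0 higher, and the median was -0.17.

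Some genes of the next lists reached 1 FPKM in fewer than 3 mice outside CSA, so that they were tested only because CSA was high, and they are described here by level and kept out of the counts. Of the other 11 tested collagen genes whose fibrils these proteins bind, 1 was called higher against 8.95% of all tested genes and 0 lower (median 0.31), namely Col12a1 (3.002, adjusted p = 6.21e-06 from limma). By the adjusted p alone, 5 were higher against 19.5% of all tested genes and 2 lower against 21.2%. The latter were Col6a2 (-0.65, adjusted p = 0.00235 from limma) and Col6a3 (-0.54, adjusted p = 0.0209). Col11a1 was one of the set-aside genes (9.32 to 14.8 FPKM in CSA and at most 0.581 elsewhere). The main fibril chain Col1a1 gave 0.97 (adjusted p = 5.29e-04), with a mean FPKM (± SD, n = 3) of 1439 ± 66.6 in CFA and 2823 ± 382 in CSA. Of 9 proteases known to cut small leucine-rich proteoglycans and tested without the help of CSA, 3 were called higher and 1 lower (median 0.75). The shares of all tested genes were 8.95% and 8.27%. Among these proteases the largest change was in Mmp9, a gelatinase (2.52, adjusted p = 2.42e-05 from limma). The set-aside genes included Mmp13, a collagenase (29.1 to 44.2 FPKM in CSA and at most 0.635 elsewhere), and Gzmb, the cytotoxic granule protease granzyme B (1.91 to 6.24 FPKM in CSA and at most 0.789 elsewhere). Of 22 receptors and ligands, 5 were called higher against 8.95% of all tested genes and 1 lower against 8.27% (median 0.25). Among the receptors for soluble biglycan, Cd14 (3.26, adjusted p = 8.64e-06) and Tlr2 (2.76, adjusted p = 1.85e-06) rose, and Tlr4 gave 0.27 (adjusted p = 0.294). Tnf was set aside (4.03 to 5.89 FPKM in CSA and at most 0.46 elsewhere). By the adjusted p alone, 5 of these proteases were higher and 2 lower, and 8 receptors and ligands higher and 6 lower. The shares of all tested genes by that rule were 19.5% higher and 21.2% lower. Over the same genes, leaving out CSA mouse 03 gave calls of 1 higher and 0 lower of 11 collagens and 4 and 1 of 9 proteases. For the 22 receptors and ligands the calls were 5 and 2, and their median was then 0.04. Of all genes in that fit, 6.26% were called higher and 7.53% lower.

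**Figure D5:**
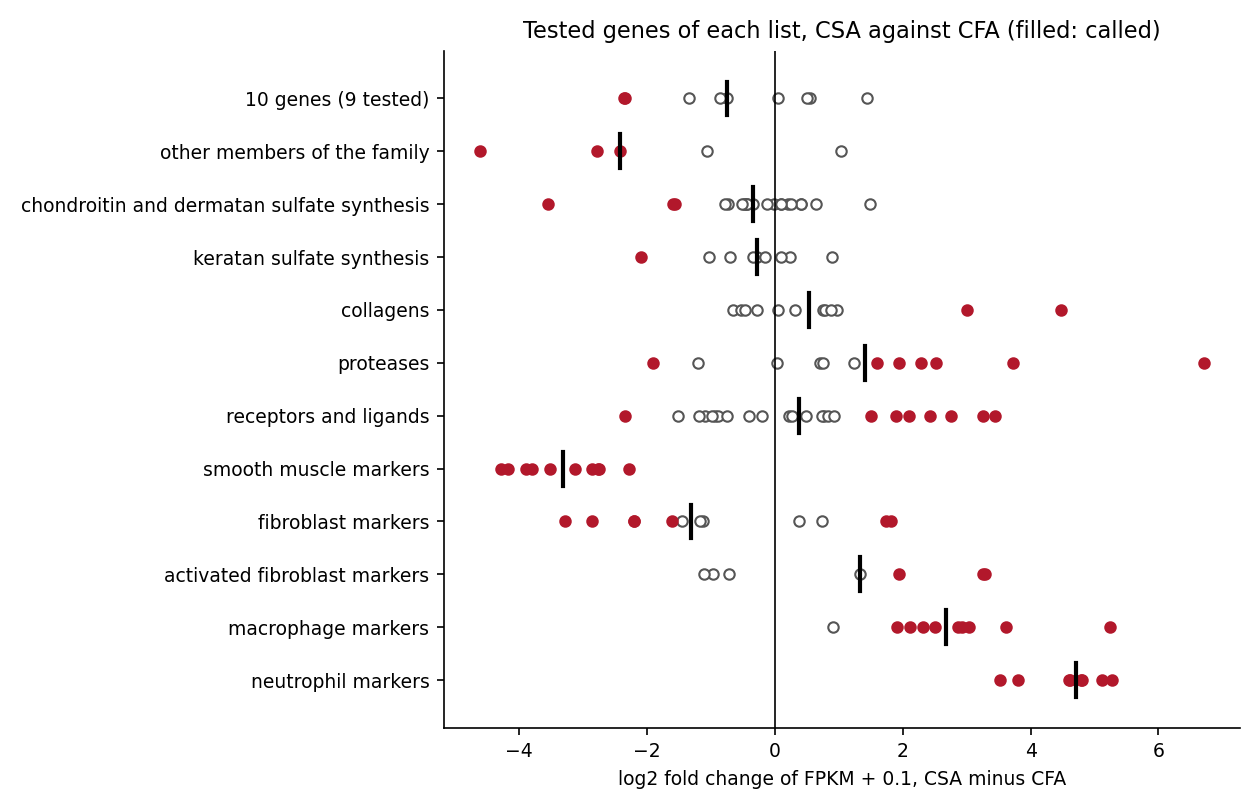
Log2 fold change between CSA and CFA (horizontal axis) of each tested gene in the lists, where filled points were called and black bars are list medians, genes tested only because CSA was high included. The 9 tested members spread from -2.36 to 1.44, while all 10 smooth muscle markers were called lower.

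Markers of several cell types moved with the same groups. For the counts that follow, 8.27% of all tested genes were called lower and 8.95% higher between CSA and CFA. All 10 smooth muscle markers were called lower in CSA than in CFA (median -3.32, with summed FPKM of 5881 to 8736 in CFA and 825 to 979 in CSA), and none was at 0. Of 12 fibroblast markers, 5 were called lower and 2 higher (median -1.31, summed FPKM 1656 to 1974 and 856 to 931). The largest falls were in Clec3b (-3.28), Gsn (-2.87) and Dpep1 (-2.21), and the 2 called higher were Ly6a (1.82) and Thy1 (1.74). Pdgfra, the defining receptor of fibroblasts, gave 0.38 (adjusted p = 0.219 from limma). Of 6 markers of activated fibroblasts tested without the help of CSA, 2 were called higher (Cthrc1 and Col8a1) and 0 lower, Fap rose by less than the fold limit (1.33, adjusted p = 4.46e-04 from limma), and the other 3 fell by less than it (Fn1 -0.98, adjusted p = 0.00192, Postn -1.11, adjusted p = 0.0236, and Tnc -0.71, adjusted p = 0.0113, from limma). Their median was 0.31 (summed FPKM of all 8 markers 758 to 1364 and 597 to 729). Of 9 macrophage markers tested without the help of CSA, 8 were called higher (median 2.50, summed FPKM of all 10 markers 348 to 746 and 2411 to 2716), and of 3 such neutrophil markers all were called higher (median 4.81, summed FPKM of all 8 markers 11.2 to 27.9 and 521 to 569). When CSA mouse 03 was left out, the calls were 10 of 10 lower for smooth muscle, 5 lower and 2 higher for fibroblasts, and, over the same markers as above, 2 of 6 higher for activated fibroblasts, 8 of 9 higher for macrophages and 3 of 3 higher for neutrophils. Of all genes tested in the fit without CSA mouse 03, 7.53% were called lower and 6.26% higher. The part of these marker changes in the levels of the 10 genes was not tested.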

How the data were processed

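Abdominal aortas of 12 male mice, 3 per group, gave 1 RNA-Seq library each. The authors deposited FPKM for every gene and mouse, without pooling. Per the labels, HISAT2 2.0.5, StringTie 1.3.3b, featureCounts 1.5.0-p3 and mm10 are named in the submitters' processing notes. Exon lengths and symbols came from GENCODE M21, and with them 98.0% to 98.5% of values under 100 fragments were whole within 0.05. Median-of-ratios factors were 1 in all 12 libraries, so that the FPKM had been scaled before deposit.

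The log2(FPKM + 0.1) values were fitted with limma 3.58.1 in R 4.3.3, using the trend and robust options of eBayes and a mean for each group. Tested were the 14676 genes that reached 1 FPKM in 3 or more libraries. P-values were two-sided, came with Benjamini-Hochberg adjustment per comparison, and measure the spread between mice. Calls needed an adjusted p below 0.05 with a log2 change beyond 1.5 in size. Fold changes on this scale understate the change of low genes. The fit was tested on simulated data with known changes larger than that of any member and the same spread in every library. That simulation therefore does not bear on changes near the fold limit or on a library that stands apart. Python 3.11.15 with pandas 2.3.3, numpy 2.4.6 and, for plots, matplotlib 3.10.9 was used for summaries.

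All 10 members are named, with the 3 tested genes of largest absolute change between CSA and CFA from lists of related genes, the 5 genes nearest to the member with the highest level and to the tested member with the largest change, and cluster neighbours. Emcn, Chst11, Chst12, Dse, Fam20b, Tsku, Chadl, Col6a2, Col6a3, Tlr4, Pdgfra, Ly6a, Thy1, Fap, Fn1, Postn and Tnc were chosen after their values were seen. So were Comp, Acan, Sox9, Alpl and Matn3. In counts of listed genes, those that reached 1 FPKM in fewer than 3 mice outside CSA were set aside where stated. The 6 lists of related genes and the 13 marker lists, like the members, were chosen with earlier results of these data known. Alternatives were a pseudocount of 1, no filter, a mean FPKM of at least 5, an equal total per library (TPM), median-of-ratios scaling, plain eBayes, array weights, no fold limit, only the 2 groups compared, and leaving out each mouse. Scaling to recovered fragment totals was added after the data were seen.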

Additional observations from a re-analysis of the deposited data

Results flagged for a closer look

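For 4 members the genotype difference under Ang II differed from that under saline by a test of the difference itself, the interaction term in limma with Benjamini-Hochberg adjustment over all tested genes. The interaction was 1.72 for Lum (adjusted p = 0.00145), -1.18 for Bgn (adjusted p = 0.00467), -1.82 for Omd (adjusted p = 0.00914) and -1.01 for Podn (adjusted p = 0.0158), on the log2 scale. For Lum and Bgn the genotype difference had opposite signs under saline and Ang II (-0.29 and 1.44 for Lum, 0.43 and -0.75 for Bgn), although under saline neither passed the adjusted p. For Omd (-0.52 and -2.35) and Podn (-0.32 and -1.34) both differences were negative. Each of the 4 kept its sign and an adjusted p under 0.05 in the alternatives tried for the interaction, of which median-of-ratios scaling and the absence of a fold limit leave these values as they are by construction.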

How the results depend on the processing

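No paired analysis was possible because the groups share no mouse numbers in the labels. Counts of called members were the same within 1.5 times under the alternatives tried, except that without a fold limit they were 6 for CSA against CFA, 5 for CSA against CSS and 4 for the interaction, and that a pseudocount of 1 gave 1 for the interaction, where Omd became -1.38. Lum passed the fold limit between CSA and CFA with TPM scaling (1.52), with scaling to recovered fragment totals (1.59), without CSA mouse 01 (1.52) and without CFA mouse 71 (1.57), and its interaction fell to 1.47 with array weights. The Ogn interaction was called with array weights (-1.81), without CFA mouse 72 (-1.73) and without CSA mouse 03 (-1.81). That of Prelp passed the adjusted p in limma, under the fold limit, with array weights (-0.81, adjusted p = 0.00514). It also passed without CFS mouse 69 (-0.83, adjusted p = 0.0234) and without CFA mouse 72 (-0.82, adjusted p = 0.0268). That of Dcn passed with array weights (0.56, adjusted p = 0.0411 from limma), also under the fold limit. Scaling to fragment totals shifted the median of all tested genes from -0.037 to 0.117 between CSA and CFA, from -0.059 to 0.121 between CSA and CSS, and that of the interaction from -0.044 to 0.115. Changes of sign were confined, among the alternatives run, to members that were not called. Aspn between CSA and CFA became -0.27 with array weights, -0.01 without CFA mouse 72 and -0.24 without CSA mouse 03, and between CSA and CSS it became -0.02 without CSA mouse 03. Between CFA and CFS, Aspn became 0.11 without CFS mouse 68 and 0.02 without CFA mouse 72, and Podn became 0.05 without CFS mouse 69. The Fmod interaction became 0.04 without CFS mouse 70. With each mouse left out in turn, these values ran from -0.24 to 0.21 for Aspn between CSA and CFA, from -0.02 to 0.43 for Aspn between CSA and CSS, from -0.13 to 0.11 for Aspn and from -0.26 to 0.05 for Podn between CFA and CFS, and from -0.70 to 0.04 for the Fmod interaction. The cause of these changes was not tested. In TPM the summed level was 8101 in CFS, 7810.0 in CSS, 8980.0 in CFA and 7700.0 in CSA, on another scale than FPKM. Depth limits Omd in CSA and Kera in all groups most.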

Other observations

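Markers of further cell types were counted between CSA and CFA by the same limma test, by which 8.95% of all tested genes were called higher and 8.27% lower. T cell markers had a summed FPKM of 0.36 to 2.14 in CFA and 17.3 to 24.7 in CSA, and B cell markers of 1.26 to 2.41 and 4.61 to 7.91. All 6 T cell and both tested B cell markers reached 1 FPKM in fewer than 3 mice outside CSA, so that they were tested only because CSA was high, and their calls are not counted. Of 8 endothelial markers 1 was called higher (Emcn, 1.56) and 3 lower (Vwf, Tek and Pecam1, -2.36 to -1.85), and of 9 adipocyte markers 4 were called lower and 0 higher, with summed FPKM of 160 to 346 in CSA against 355 to 1004 in CFA. None of 4 tested skeletal muscle markers and none of 5 Schwann cell markers was called, and none of 4 mesothelial markers passed the filter. By the adjusted p alone those counts were 0 for skeletal muscle and 1 for Schwann cells (Mbp, 1.42, adjusted p = 0.00326 from limma). By that rule 19.5% of all tested genes were higher and 21.2% lower.

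Of 6 chondrogenic and osteogenic markers tested without the help of CSA, 2 were called lower against 8.27% of all tested genes and 0 higher against 8.95%. They were Cytl1 (-4.85) and Hapln1, a link protein of cartilage matrix (-3.17). The median log2FC of the 6 was 0.32. By the adjusted p alone, 2 were lower against 21.2% of all tested genes and 1 higher against 19.5%. The latter was Comp (1.19, adjusted p = 9.04e-04 from limma). Acan (1.06, adjusted p = 0.0929), Sox9 (0.76, adjusted p = 0.0506) and Alpl (-0.13, adjusted p = 0.817) did not pass in limma. Runx2, a transcription factor of bone formation (2.19 to 3.1 FPKM in CSA and at most 0.443 elsewhere), was tested only through CSA, as was Matn3. With CSA mouse 03 left out, 2 of 6 tested markers of this list were called lower and 0 higher, and 3 of 8 endothelial markers lower and 0 higher. In that fit 4 of 9 adipocyte markers were called lower, 1 of 5 Schwann cell markers higher and 0 of 4 skeletal muscle markers either way. Of all genes in it, 7.53% were called lower and 6.26% higher.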
